A study of Homo sapiens with 6 samples.

Results

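The NRF2 antioxidant program was followed in sorted pancreatic cancer cells through 9 genes, taken by symbol: NFE2L2, which encodes NRF2, its inhibitor KEAP1, and the targets NQO1, GCLM, GCLC, TXNRD1, SRXN1, HMOX1 and AKR1C1. All 9 were among the 19469 genes of the count table. RNA came from L3.6pl, an established human pancreatic cancer line of metastatic origin, grown in DMEM with serum and left untreated. The cells were separated by FACS on surface L1CAM, an adhesion molecule, into an L1CAM_POSITIVE population (L1high) and an L1CAM_NEGATIVE population (L1low), with 3 libraries each. In the labels the cell line field reads L6.6pl, a spelling that differs from the titles. All libraries come from this 1 line. The methods describe sorting experiments in general as repeated independently, with replicate samples each time, but do not say which of these libraries came from separate cultures. The p-values therefore measure the spread between these libraries, which may be technical.

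NRF2 is a transcription factor of the cap'n'collar family. KEAP1 binds it and hands it to a CUL3 ubiquitin ligase for degradation, until oxidants or electrophiles modify KEAP1 and let NRF2 accumulate. NRF2 then pairs with a small MAF protein on antioxidant response elements and raises genes for glutathione and thioredoxin chemistry, NADPH supply, detoxification and heme breakdown, while BACH1 can occupy the same elements as a repressor. In pancreatic cancer the program is known for its part in redox protection. NRF2 is controlled mostly at the level of protein stability, so its mRNA is not a measure of its activity.

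The element that joins these genes was looked for as the letters TGACNNNGC on either strand in the 1000 bases before the MANE Select start site of each gene, read from the GRCh38 genome. It was found for 4 of the 9 genes (44.4%) and for 33.4% of the 12903 genes of the table with such a start site. The windows are shown so that the matched letters of the 4 genes can be compared. The matches were not checked against the known elements of these genes. The matched letters are in capitals, each window is read 5′ to 3′ along the strand that carries the letters, and the distance runs from the start site to the nearest matched base.
NQO1, chr16:69726997-69727025, minus strand, 447 bases upstream: gcagtcacagTGACTCAGCagaatctgag
GCLM, chr1:93909446-93909474, plus strand, 26 bases upstream: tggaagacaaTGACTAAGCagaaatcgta
TXNRD1, chr12:104215670-104215698, plus strand, 91 bases upstream: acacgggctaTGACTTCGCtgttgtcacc
GCLC, chr6:53545953-53545981, plus strand, 862 bases upstream: aaatatgtgtTGACAGAGCaatgacctgt
The matches in NQO1 and TXNRD1 read along the strand of the gene, and those in GCLM and GCLC along the opposite strand. A match is a run of letters and not a measured binding site, and a missing match in the other 5 genes says only that these letters were not in the window.

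The sort was visible in the counts. L1CAM stood at 84.0, 69.8 and 89.5 CPM (counts scaled to 1e6 per library, with TMM factors) in L1high replicates 1, 2 and 3 and at 17.7, 23.7 and 20.0 in L1low replicates 1, 2 and 3. Libraries held between 16334610 and 21064685 counts. The 8 epithelial markers were all in the table, with summed levels from 4672 to 5276 CPM in L1high and from 5152 to 5558 in L1low libraries. Of markers of other cells, 3 of 9 fibroblast (LUM, COL3A1 and PDPN) and 2 of 7 leukocyte genes (CD68 and ITGAM) were in the table. So was 1 of 5 endothelial genes (PECAM1). All genes of the table were above 1 CPM in 2 or more libraries, so a missing marker was not shown to lack reads. The fibroblast sum, most of it LUM, ran from 86.4 to 97.8 CPM in L1high and from 144 to 167 in L1low libraries. The leukocyte sum ran from 11.3 to 12.7 and from 10.2 to 12.7, and the endothelial sum from 11.3 to 11.9 and from 13.2 to 14.7. Of the 8 epithelial markers 3 were called (37.5%, against 7.95% of all genes tested), with KRT19 higher and EPCAM and CLDN4 lower in L1low cells. CLDN4 was not called without L1high replicate 3 (log2 fold change -0.29, adjusted p = 0.058). LUM and PDPN rose in L1low cells (2 of 3 fibroblast genes in the table called, 66.7%), and ITGAM fell (1 of 2 leukocyte genes, 50.0%). The part of such cells in the results was not tested. In bulk RNA, fewer cells that express a gene and less RNA per cell cannot be told apart. L1low was compared with L1high over all 6 libraries with edgeR's quasi-likelihood test, and a gene was called at a Benjamini-Hochberg adjusted p under 0.05 over all genes tested. The study's own comparison was made without L1high replicate 3, and values without that library are given where they change the call of a gene described here.

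Differences between the 2 populations were small among the 9 genes, with log2 fold changes from -0.36 to 0.21. SRXN1 was the 1 gene called, lower in L1low cells, and 8 were not called, against 7.95% of all 19467 genes tested (4.58% higher and 3.37% lower). Without L1high replicate 3, GCLM was the 1 gene called in place of SRXN1, against 7.57% of all genes (4.41% higher and 3.15% lower). Of the 9 genes, 4 were higher and 5 lower in L1low cells, and the median log2 fold change was -0.01, against -0.01 for all genes tested. Before adjustment, 4 of the 9 had a p under 0.05, against 23.3% of all genes tested. Libraries of the populations were fully separated in 4 of the 9, GCLM, TXNRD1 and SRXN1 on the lower side and AKR1C1 on the higher side, against 28.8% of all genes (15.2% higher and 13.7% lower). The median absolute log2 fold change was 0.11, against 0.12 over the 6964 genes whose average log2 CPM reached 5, as 8 of the 9 genes did.

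**Figure D1:**
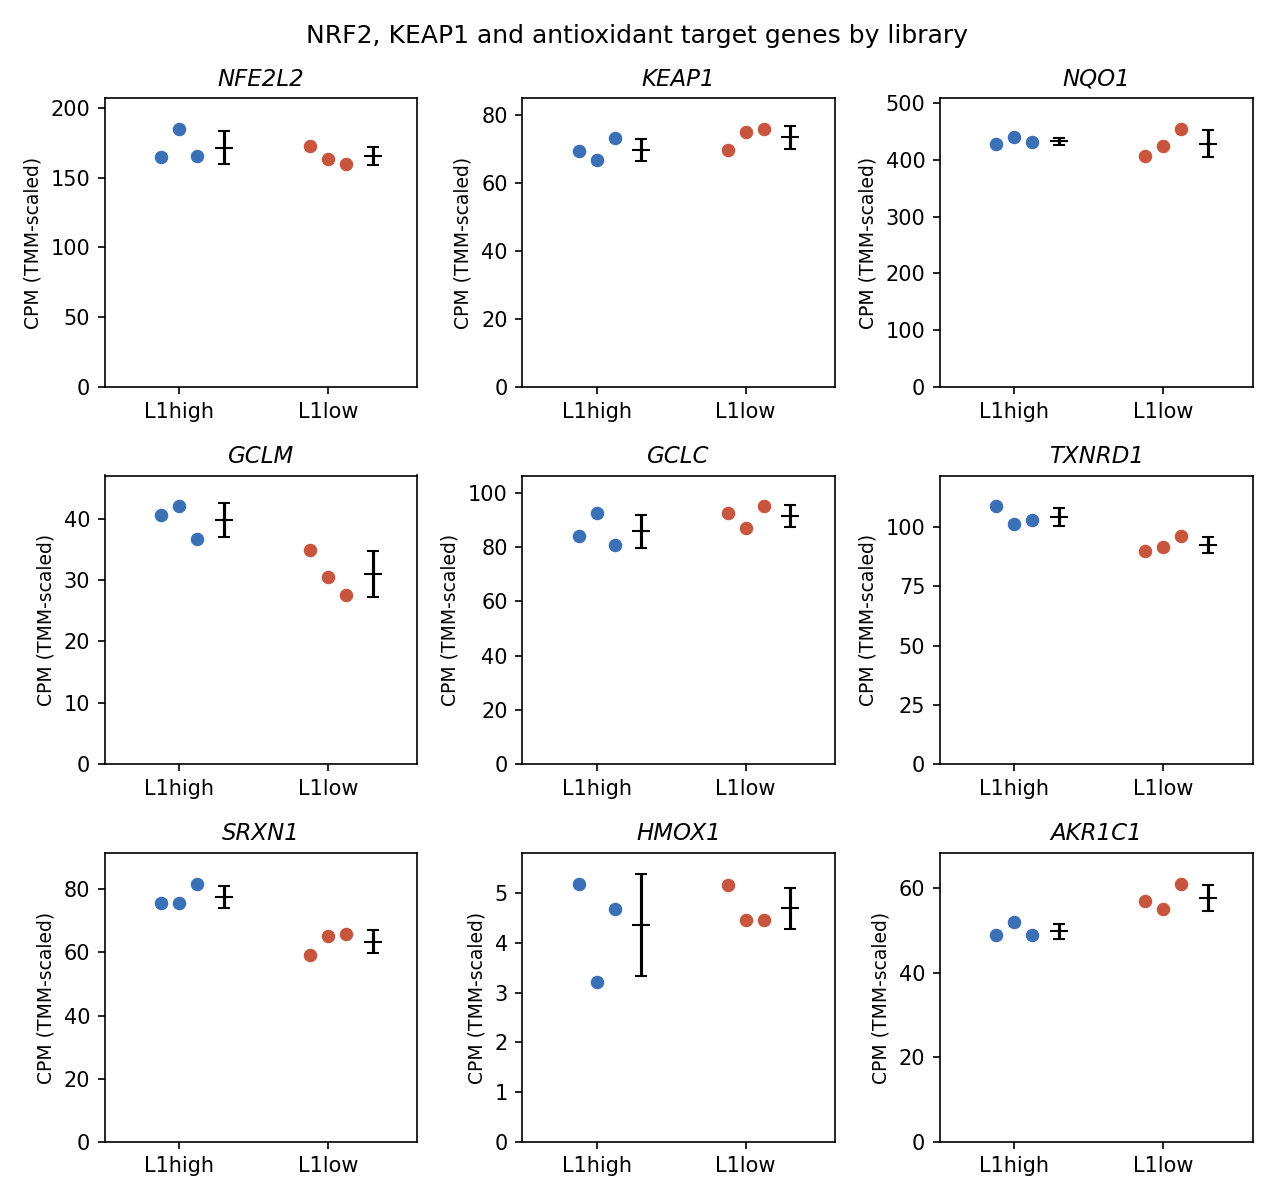
Each panel shows 1 gene, with CPM (TMM-scaled, axis from 0) on the vertical axis for the 3 L1high libraries (blue) and the 3 L1low libraries (red), drawn in the order of replicates 1, 2 and 3, with the mean and SD in black. The groups separate for GCLM, TXNRD1, SRXN1 and AKR1C1, and overlap for the other 5 genes.

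The regulator and its inhibitor did not differ measurably. NFE2L2 (ENSG00000116044, minus strand of chromosome 2 from 177218667 to 177392756 in GENCODE release 44 on GRCh38) stood at 165, 185 and 165 CPM in L1high replicates 1, 2 and 3 and at 172, 163 and 160 in the L1low libraries. The groups overlapped, with L1high replicate 2 the highest of the 6. Its log2 fold change was -0.06 with a 95% interval from -0.21 to 0.10 (adjusted p = 0.68 in edgeR's quasi-likelihood test). KEAP1 (ENSG00000079999, minus strand of chromosome 19 from 10486125 to 10503558) stood at 69.4, 66.8 and 73.2 CPM in L1high and at 69.6, 74.9 and 75.9 in L1low libraries. Its interval ran from -0.08 to 0.23 around a log2 fold change of 0.07 (adjusted p = 0.58). Within a library, KEAP1 counts per kilobase of transcript were 0.390 ± 0.0403 times those of NFE2L2 in L1high and 0.425 ± 0.0354 times in L1low cells (SD, n = 3 each), a difference within the spread (p = 0.40 in a two-sided exact permutation test over the 6 libraries, where the smallest possible p is 0.10).

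NQO1 (ENSG00000181019, minus strand of chromosome 16 from 69706996 to 69726668), a quinone reductase widely used as a readout of NRF2 activity, was the most abundant of the 9 and moved least. It stood at 427, 440 and 432 CPM in L1high and at 407, 425 and 454 in L1low libraries. The L1low libraries reached both below and above all L1high libraries. The log2 fold change was -0.01 (95% interval from -0.15 to 0.12). HMOX1 (ENSG00000100292, plus strand of chromosome 22 from 35380361 to 35394214), the heme oxygenase that opens the heme ring, was the least abundant, with only 110, 66 and 77 counts in L1high and 94, 80 and 79 in L1low libraries. That is 5.19, 3.21 and 4.69 CPM against 5.17, 4.46 and 4.46, and L1high replicate 2 alone stood apart. Its interval, from -0.31 to 0.53 around 0.11, was the widest of the 9, wide enough to hold no difference as well as a rise larger than any measured among the other 8.

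The pair of subunits of glutamate-cysteine ligase, which makes the first step of glutathione, had transcripts with values on opposite sides of 0, and neither was called. GCLM (ENSG00000023909, minus strand of chromosome 1 from 93885199 to 93909456) encodes the modifier subunit and stood at 40.5, 42.0 and 36.7 CPM in L1high and at 34.9, 30.5 and 27.6 in L1low libraries. All L1low libraries lay below all L1high libraries, the nearest being L1low replicate 1 and L1high replicate 3. This gave a log2 fold change of -0.36 (SE 0.10, 95% interval from -0.58 to -0.14), which narrowly missed the threshold (adjusted p = 0.053 in edgeR's quasi-likelihood test). Without L1high replicate 3 it was called (log2 fold change -0.40, adjusted p = 0.044), as it was without L1low replicate 1 (-0.45, adjusted p = 0.029), and the alternatives gave adjusted p values between 0.012 and 0.19. GCLC (ENSG00000001084, minus strand of chromosome 6 from 53497341 to 53616970) encodes the catalytic subunit and stood at 84.2, 92.4 and 80.7 CPM in L1high and at 92.5, 87.0 and 94.9 in L1low libraries. These overlapped, with a log2 fold change of 0.09 (95% interval from -0.07 to 0.26).

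The ratio of the subunits' transcripts within each library does not depend on how libraries are scaled. GCLM had 0.373, 0.352 and 0.353 times the counts per kilobase of GCLC in L1high replicates 1, 2 and 3. In L1low replicates 1, 2 and 3 the ratio was 0.292, 0.272 and 0.225. The lowest L1high library thus lay above the highest L1low library, and the exact two-sided permutation test gave p = 0.10, the smallest that 3 against 3 libraries allow. This ratio was chosen after the values of both genes were seen.

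TXNRD1 and SRXN1, which serve thioredoxin and peroxiredoxin chemistry, both had lower levels in every L1low library than in any L1high library. TXNRD1 (ENSG00000198431, plus strand of chromosome 12 from 104215779 to 104350307), the cytosolic thioredoxin reductase, stood at 109, 101 and 103 CPM in L1high and at 89.6, 91.5 and 96.1 in L1low libraries. The log2 fold change, -0.17 (standard error 0.07, 95% interval from -0.32 to -0.03), was not called (adjusted p = 0.14 in edgeR's quasi-likelihood test). SRXN1 (ENSG00000271303, minus strand of chromosome 20 from 646615 to 653200) encodes sulfiredoxin, which restores overoxidized peroxiredoxins. It stood at 75.7, 75.7 and 81.7 CPM in L1high and at 59.2, 65.2 and 65.9 in L1low libraries. The gap between the groups was wider than the range of either, and SRXN1 fell by 0.29 as log2 fold change (SE 0.07, adjusted p = 0.035 in edgeR's quasi-likelihood test). The call was a narrow one. It was lost without L1high replicate 1 (log2 fold change -0.31), L1high replicate 3 (-0.25), L1low replicate 1 (-0.24), L1low replicate 2 (-0.31) or L1low replicate 3 (-0.31), and held without L1high replicate 2. The alternatives gave adjusted p values between 0.013 and 0.12.

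SRXN1 also shares its place in the genome. ENSG00000270299, annotated as a protein-coding readthrough gene on the same strand, contains 90.6% of the 50-base stretches of the SRXN1 transcript. Its counts were 1598, 1545 and 1334 in L1high and 1071, 1164 and 1157 in L1low libraries, between 4 and 10 below those of SRXN1 in each library. The rows therefore appear to hold the same reads, and the log2 fold change of -0.29 of ENSG00000270299 is not a separate measurement.

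AKR1C1 (ENSG00000187134, plus strand of chromosome 10 from 4963253 to 4983283), an aldo-keto reductase of steroids and lipid aldehydes, was the target with the largest difference upward. It stood at 48.8, 51.8 and 48.8 CPM in L1high and at 56.8, 54.9 and 60.9 in L1low libraries, without overlap. The log2 fold change of 0.21 (95% interval from 0.04 to 0.37) was not called (adjusted p = 0.13 in edgeR's quasi-likelihood test). Its neighbors of the same family had log2 fold changes of 0.07 (AKR1C2, adjusted p = 0.67) and 0.16 (AKR1C3, adjusted p = 0.18). Of the 50-base stretches of the AKR1C1 transcript, 22.3% also occur in AKR1C2, and 45.7% of those of AKR1C2 occur in AKR1C1, so reads could have been split between them and the level of either is uncertain. Antisense genes lie across parts of 3 other members: ENSG00000261602 across NQO1 (272 to 427 counts), ENSG00000222043 across NFE2L2 (57 to 85 counts) and GCLC-AS1 across GCLC (42 to 77 counts). The members themselves held 7087 to 9067 (NQO1), 2715 to 3798 (NFE2L2) and 1324 to 1898 counts (GCLC). The strand setting of the counting was not given in the sources used here, so reads of these antisense pairs cannot be told apart. AGPS and HNRNPA3 on the opposite strand and ENSG00000213963 on the same strand also overlap the span of NFE2L2. RPL18AP3 and EID3 overlap that of TXNRD1 on the same strand. No 50-base stretch of the TXNRD1 transcript occurs in another gene, and 5.92% of those of NFE2L2 do, all in ENSG00000222043.

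**Figure D2:**
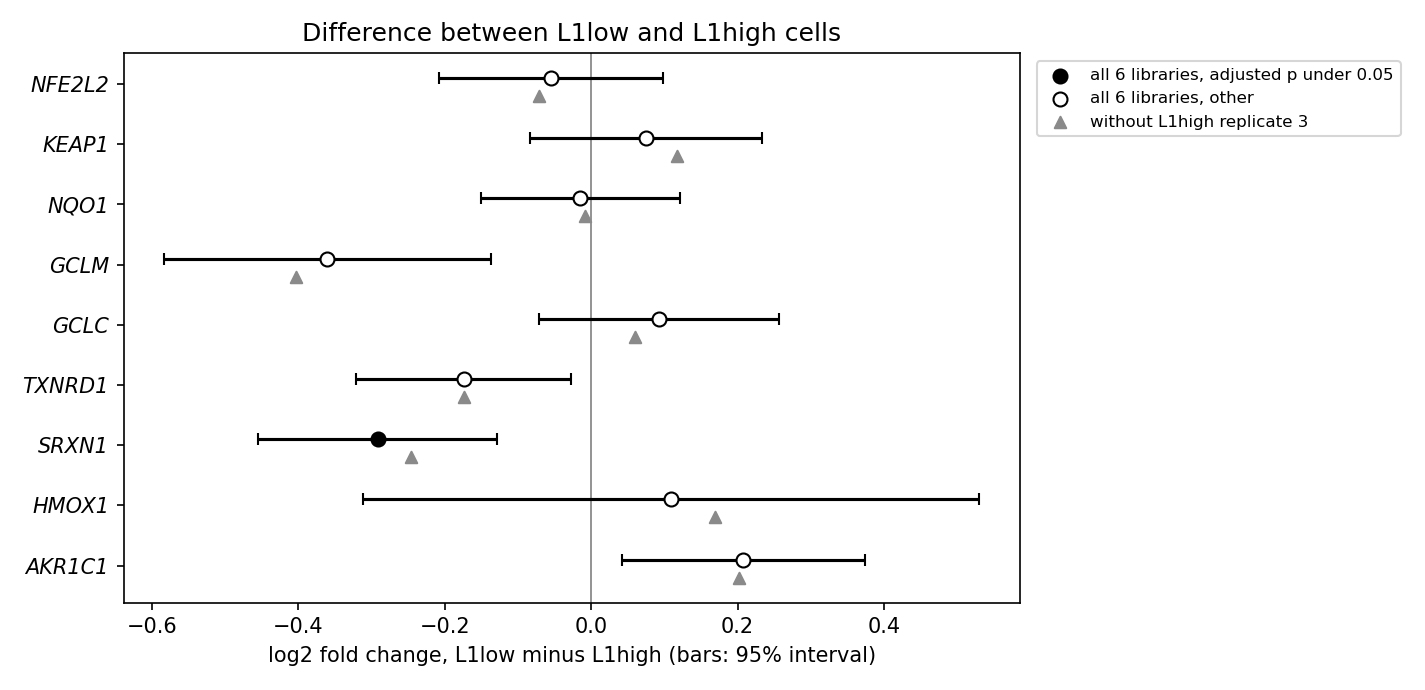
Each row is 1 gene, with the log2 fold change (L1low minus L1high) on the horizontal axis. Circles and bars give the value and its 95% interval over all 6 libraries, and triangles the value without L1high replicate 3. SRXN1 is the filled circle at -0.29, and the intervals of GCLM, TXNRD1 and AKR1C1 also leave out 0 before adjustment over all genes.

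Per kilobase of transcript, the genes covered a wide range in both populations. In L1high cells NQO1 stood at 172 ± 2.48 CPM per kilobase (SD, n = 3, as for all values in this paragraph) and NFE2L2 at 70.2 ± 4.71. A middle group followed with SRXN1 at 30.7 ± 1.38, KEAP1 at 27.2 ± 1.25, TXNRD1 at 27.0 ± 0.986 and GCLC at 22.7 ± 1.59. KEAP1 and TXNRD1 did not differ beyond their spread. GCLM at 8.14 ± 0.554 and AKR1C1 at 7.61 ± 0.270 came next, within each other's spread, and HMOX1 was last at 2.81 ± 0.660. In L1low cells NQO1 (170 ± 9.58), NFE2L2 (67.5 ± 2.64) and HMOX1 (3.02 ± 0.266) kept their places. KEAP1 (28.6 ± 1.31) stood above SRXN1 (25.1 ± 1.46), and AKR1C1 (8.80 ± 0.469) above GCLM (6.34 ± 0.757). SRXN1, GCLC (24.2 ± 1.08) and TXNRD1 (23.9 ± 0.857) were within their spread.

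The other genes of the pathway were taken from 6 lists by role, with 64 of 65 listed genes in the table. Of these 14 were called (21.9%), 9 higher and 5 lower in L1low cells, and their median log2 fold change was 0.02. Among the 50 of them that reached an average log2 CPM of 5, a level set after the values were seen, 13 were called (26.0%), where 11.9% of all genes of that level were. Shares of single lists below are set against all genes tested (7.95% called), a lower share than at that level. The lists were chosen with earlier results of these data known, so all these shares are descriptions and not support for a difference. The calls went both ways within 4 of the 6 lists, and the thioredoxin and NADPH lists had none. Without L1low replicate 2, 7 of the 64 genes were called, and without any other single library between 10 and 14. Calls over all genes also fell, from 1548 to 627 without L1low replicate 2. Without any other single library they lay between 674 and 1473. BACH1, RXRA, ABCC2, ABCC3, ALDH3A1, SLC48A1 and TFRC kept their call under all 14 alternatives tried.

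**Figure D3:**
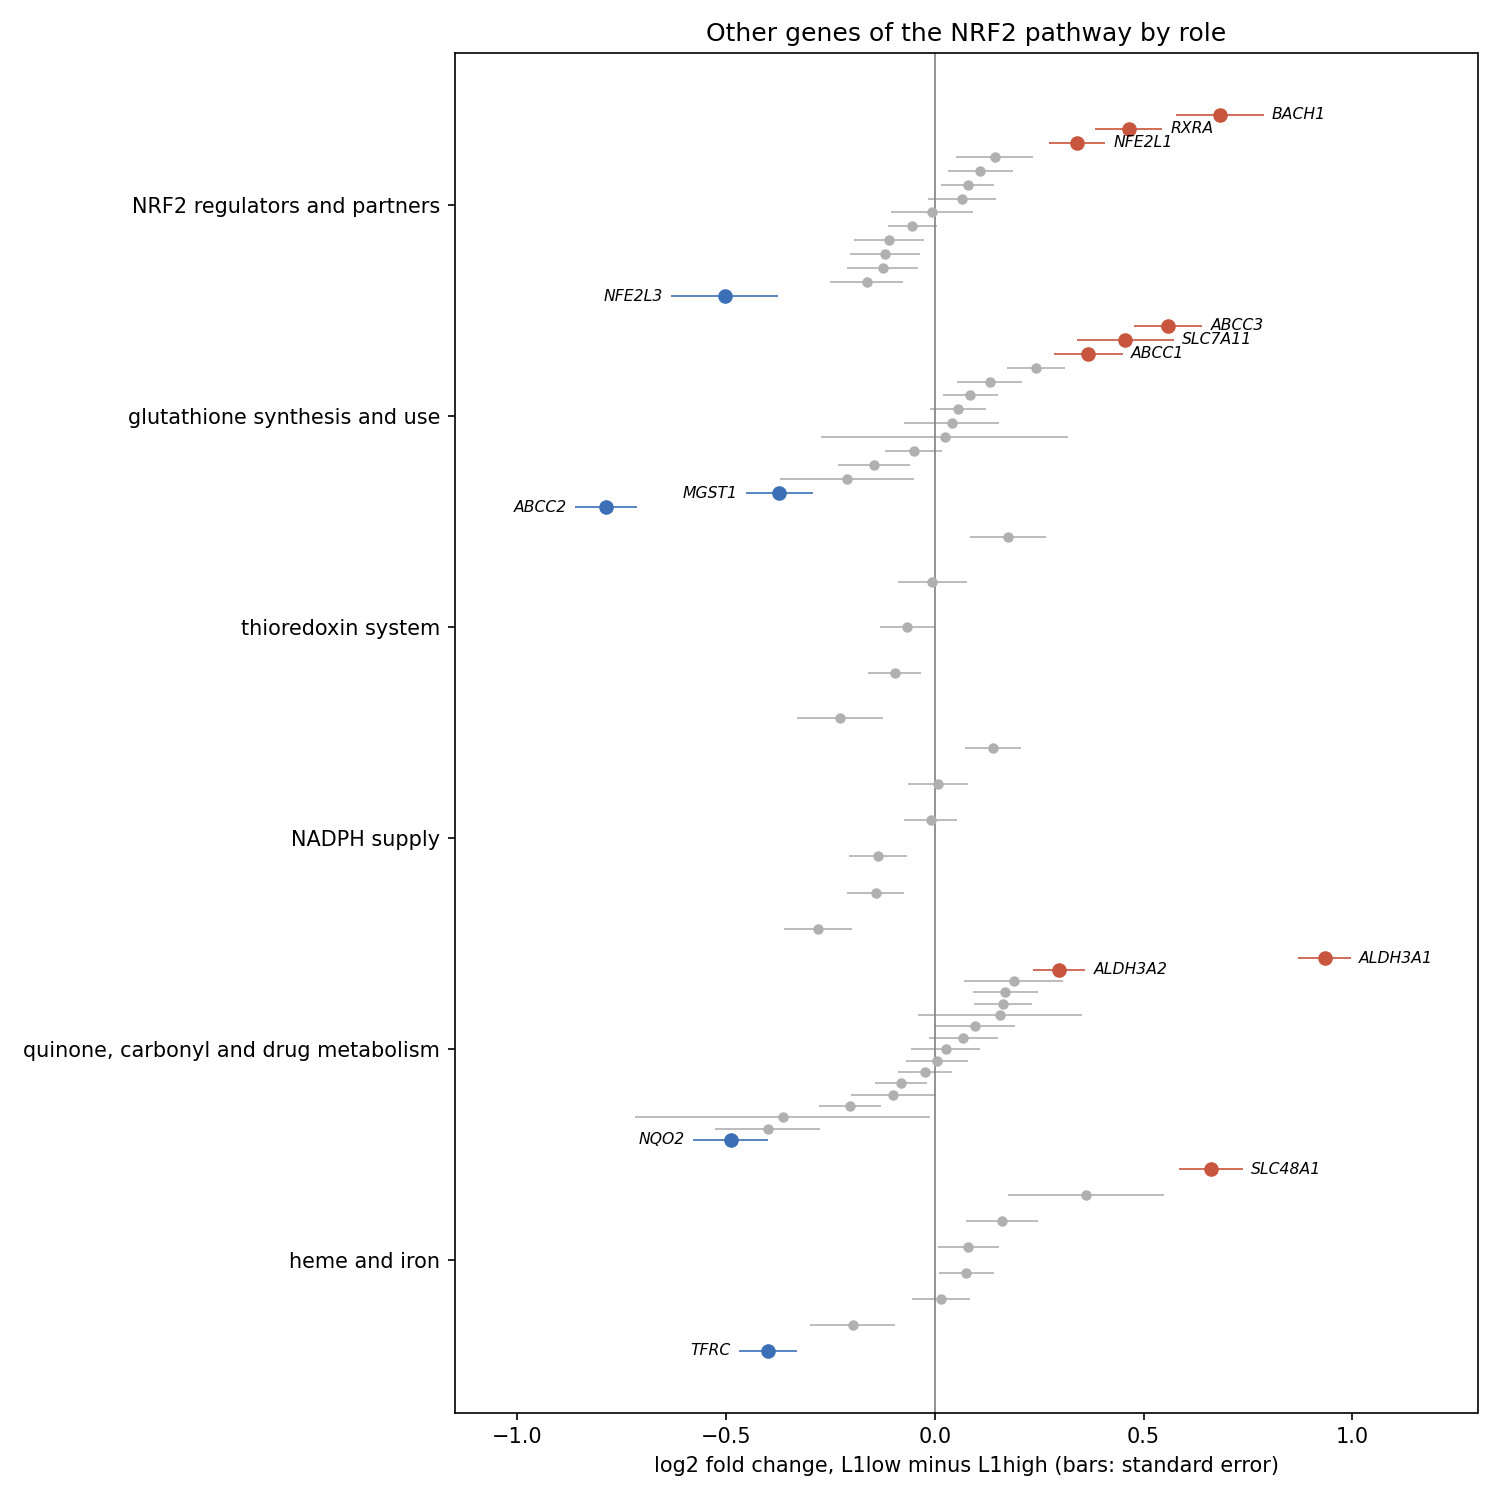
Each point is 1 of 64 further genes of the pathway, grouped by role, with its log2 fold change (L1low minus L1high) and standard error on the horizontal axis. Red and blue points with names were called higher and lower, grey points were not called, and called genes lie on both sides of 0 in 4 of the 6 lists.

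Among 14 regulators and partners of NRF2, 3 rose and 1 fell (28.6% called, against 7.95% of all genes), and by sign alone 7 were higher and 7 lower. BACH1, the repressor that competes for the same elements, rose most, from 35.1, 35.6 and 29.4 CPM in L1high to 57.1, 56.9 and 46.9 in L1low libraries. The groups were far apart, although replicate 3 was the lowest of both. This gave a log2 fold change of 0.68 (SE 0.10, adjusted p = 0.0021 in edgeR's quasi-likelihood test), a 1.61-fold difference. RXRA, a nuclear receptor that can bind and inhibit NRF2, rose by a log2 fold change of 0.46 (adjusted p = 0.0042). The related factors moved apart, with NFE2L1 higher (0.34, adjusted p = 0.0095) and NFE2L3 lower (-0.50, adjusted p = 0.034). NFE2L1 was not called without L1low replicate 2 (0.32), and NFE2L3 was not called without L1high replicate 1 or 2 or L1low replicate 2 or 3, with values from -0.56 to -0.41. The small MAF genes and CUL3 were not called, with MAFG at -0.01 and CUL3 at -0.13.

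Among 14 genes of glutathione synthesis and use, 3 rose and 2 fell (35.7% called, against 7.95% of all genes). The export pumps of the ABCC family in this list, which differ in what they carry, gave calls in both directions. ABCC2 stood at 60.4, 58.6 and 59.8 CPM in L1high and at 34.4, 33.6 and 35.6 in L1low libraries, a log2 fold change of -0.79 (SE 0.07, adjusted p = 5.8e-05 in edgeR's quasi-likelihood test). ABCC3 rose from 91.7, 75.9 and 88.8 to 125, 122 and 131 (log2 fold change 0.56, adjusted p = 0.0014), and ABCC1 from 54.1 ± 5.14 to 69.8 ± 1.93 CPM (SD, n = 3 in each; 0.37, adjusted p = 0.019). The ratio of ABCC2 to ABCC3 per kilobase was 0.688 ± 0.0603 in L1high and 0.269 ± 0.00247 in L1low cells (SD, n = 3 each), without overlap (p = 0.10 in the exact two-sided permutation test, the smallest possible). This ratio too was chosen after its values were seen.

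SLC7A11, the cystine side of the cystine-glutamate exchanger, rose from 55.5, 59.3 and 45.6 to 79.9, 78.5 and 61.9 CPM (log2 fold change 0.46, standard error 0.12, adjusted p = 0.035 in edgeR's quasi-likelihood test). Its lowest L1low library, replicate 3, was only slightly above the highest L1high library. The call was lost without L1high replicate 1 (0.48) or 3 (0.37) or without L1low replicate 1 (0.39) or 2 (0.41). Its partner chain SLC3A2 was not called, at 0.09. MGST1, a membrane-bound glutathione transferase, fell from 300, 349 and 285 to 249, 244 and 228 CPM (-0.37, adjusted p = 0.015), a call lost without L1high replicate 1 (-0.40) or L1low replicate 2 (-0.38) or 3 (-0.33). ABCC1 was not called without L1low replicate 2 (0.34). GSR, which reduces oxidized glutathione, was at 0.24 and not called (adjusted p = 0.058).

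No gene was called among 5 of the thioredoxin system or 6 of NADPH supply in edgeR's quasi-likelihood test over all 6 libraries, with 1 in each list at an unadjusted p under 0.05. TXN itself stood at 176, 197 and 177 CPM in L1high and at 137, 147 and 186 in L1low libraries, where L1low replicate 3 lay among the L1high libraries. ME1, the cytosolic malic enzyme, lay lower in all L1low libraries (150, 157 and 135 against 132, 120 and 113 CPM). The difference of -0.28 (log2) was not called (adjusted p = 0.058), but was called without L1high replicate 3 (-0.33, adjusted p = 0.035).

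Of 17 genes of quinone, carbonyl and drug metabolism in the table, 2 rose and 1 fell (17.6% called, against 7.95% of all genes). ALDH3A1, an aldehyde dehydrogenase of epithelia that is also a known target of the aryl hydrocarbon receptor, had the largest difference among the 64 genes. It stood at 150, 143 and 156 CPM in L1high and at 290, 286 and 280 in L1low libraries. As log2 fold change this was 0.93 (SE 0.06, adjusted p = 4.9e-06 in edgeR's quasi-likelihood test), a 1.91-fold difference. Its microsomal relative ALDH3A2 rose by 0.30 (adjusted p = 0.013), a call lost without L1high replicate 1 or L1low replicate 2 (0.30 in each). NQO2, the quinone reductase related to NQO1, fell from 37.8, 41.2 and 42.2 to 27.2, 28.0 and 31.2 CPM (-0.49, adjusted p = 0.0064), and missed the threshold only without L1low replicate 2 (-0.47, adjusted p = 0.053).

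Of 8 heme and iron genes, 1 rose and 1 fell (25.0% called, against 7.95% of all genes), and by sign alone 6 were higher and 2 lower. SLC48A1, a transporter of heme, stood at 31.9, 34.2 and 34.1 CPM in L1high and at 52.0, 52.8 and 53.6 in L1low libraries (log2 fold change 0.66, adjusted p = 2.7e-04 in edgeR's quasi-likelihood test). TFRC, the transferrin receptor for iron uptake, fell from 496, 477 and 459 to 389, 364 and 333 CPM (-0.40, adjusted p = 0.0050). The ferritin chains FTH1 (0.01) and FTL (0.08), abundant targets of NRF2, were not called. Antioxidant enzymes that are not classical NRF2 targets had 1 call among 11 in the table (9.09%, against 7.95% of all genes), PRDX4 of the endoplasmic reticulum, which fell by 0.29 as log2 fold change (adjusted p = 0.029). Without L1high replicate 3 the mitochondrial PRDX3 was called as well (-0.37, adjusted p = 0.037, against -0.30 and 0.089 over all 6 libraries), which made 2 calls where 7.57% of all genes were called.

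Immediate early and heat shock genes, listed as signs of handling stress, were measured in both populations. Their summed level ran from 8793 to 9398 CPM in L1high and from 10707 to 11447 in L1low libraries. Of the 14, 5 rose, FOS, FOSB, EGR1, ATF3 and IER2 (35.7%, against 4.58% of all genes called higher), and HSPA1A and HSPA1B stood at 0.02 and -0.05. The part of these genes in the differences of the pathway was not tested.

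**Figure D4:**
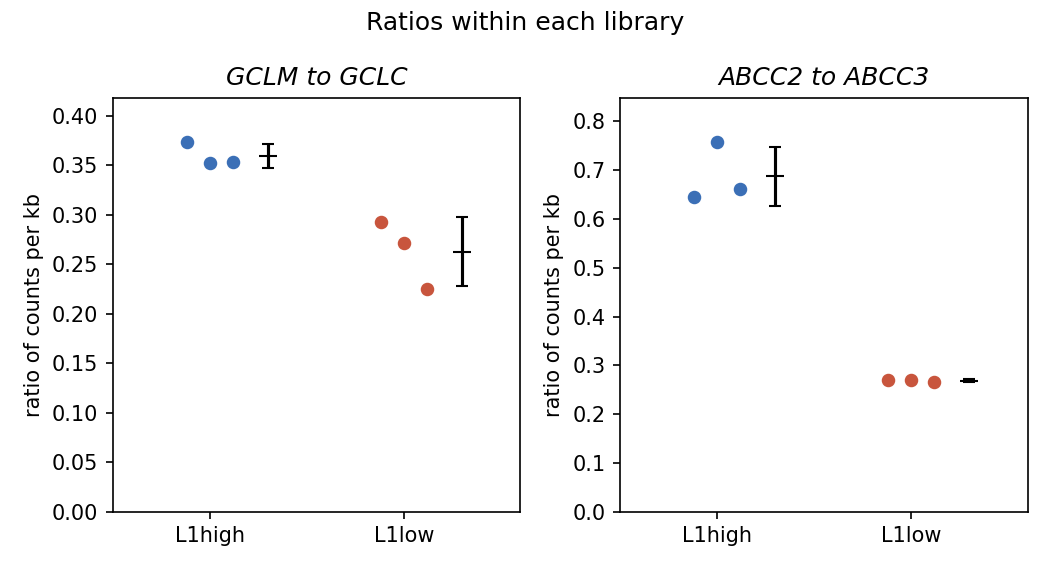
Points give, for each library, the ratio of counts per kilobase of 2 transcripts (vertical axis from 0) in L1high (blue) and L1low (red) cells, with the mean and SD in black. GCLM to GCLC lies between 0.352 and 0.373 in L1high and between 0.225 and 0.292 in L1low libraries, and ABCC2 to ABCC3 is lower in every L1low library.

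The genes whose levels were most like those of NQO1 and NFE2L2 were picked over the same libraries. Over the log2 CPM of the 6 libraries and 6158 other protein-coding genes with a mean log2 CPM of at least 5, TRUB2 (Pearson's r 0.99), EIF2B4 (0.98) and MAD2L2 (0.98) were most like NQO1. For NFE2L2 these were TXNL1 (0.99), TSPAN6 (0.98) and NFIL3 (0.98), each highest in L1high replicate 2 as NFE2L2 was. These coefficients are descriptions over 6 points that share libraries, picked as the highest of all those searched.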

How the data were processed

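Per the methods, the authors made stranded mRNA libraries, ran BWA against GRCh38 on the paired-end reads, and summarized reads by featureCounts over genes of the Ensembl annotation, release 94. They deposited raw counts for 19469 genes, all above 1 CPM in 2 or more libraries. Tool versions, strand and multi-mapping options are not given in the sources used here.

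Identifiers were matched to GENCODE release 44 (19344 of 19469). The counts were fitted in R 4.3.3 with edgeR 4.0.16 (TMM, filterByExpr, quasi-likelihood test), without covariates. The standard error is the log2 fold change divided by the square root of F, and intervals are at 95%. The fit was tested on simulated data. Levels per kilobase use MANE Select lengths. Within groups, no pair of libraries was as close as counting noise alone would give (chi-square per degree of freedom from 3.66 to 11.5).

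The members and lists were chosen with earlier results of these data known. Named genes are the 9 members, AKR1C2, AKR1C3, L1CAM, called genes of each list (at most 6, by p), and the 3 genes most like NQO1 and NFE2L2. Other named genes were chosen after their values were seen. Alternatives were DESeq2 1.42.0, edgeR's exact test, other scalings and filters, the replicate block, and each library left out.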

Additional observations from a re-analysis of the deposited data

How the results depend on the processing

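Across 26 results, 364 values were recomputed, of which 325 kept direction and side of the threshold (or, for counts, stayed within 1.5 times), 21 were weaker, 5 stronger, 3 reversed and 10 moved. Over all genes, the 1548 calls became 2363 with the replicate block and from 627 (without L1low replicate 2) to 1473 when 1 library was left out. Calls among the 9 members ran from 0 to 1 over these left-out libraries and were 2 (SRXN1 and GCLM) with DESeq2, with edgeR's exact test and with the replicate block; they were 0 in edgeR's quasi-likelihood test without L1high replicate 1, L1low replicate 2 or L1low replicate 3. Calls among the wider lists ran from 7 to 14 without 1 library and reached 17 at most. Directions reversed for 3 genes that were never called: HMOX1 (-0.076 without L1high replicate 2, 0.26 at most without 1 library), NFE2L2 (0.0023 without L1high replicate 2, -0.087 at the other end) and NQO1 (0.022 without L1low replicate 1, -0.048 at the other end). The cause was not tested. Deviations of same-numbered libraries from their group means had correlations of 0.22, 0.08 and 0.49 (replicates 1, 2 and 3) over 6932 genes. L1high replicate 3 was at -0.44 and -0.20 with L1low replicates 1 and 2. L1low replicate 3 was at -0.30 with each of L1high replicates 1 and 2. By the value of 0.49, the libraries numbered 3 varied together. Deviations from a group mean cancel within the group, so the negative values are partly forced and are not separate evidence. L1high replicate 2, however, was closer to L1low replicate 1 (0.29) than to L1low replicate 2 (0.08). The main fit has no block for replicate, and whether the numbers pair libraries is not given in the sources used here. Scaling by library totals turned no direction among the members. The filter removed 2 genes, so leaving it out tests little. HMOX1, with at most 110 counts, limits what its comparison can show.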
